A study of Mus musculus with 8 samples.

Results

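Autophagy genes were followed in mouse inner medullary collecting duct cells (IMCD, a kidney cell line from the last segment of the renal tubule) exposed to hypertonic medium. The members were the rows of the raw count table whose gene symbol belonged to a list of core autophagy components, from the ATG genes and the ULK kinases to the cargo receptors. This rule used no measured value and found 44 of 15288 genes, and all 44 passed the filter on low counts, as did 14024 genes in all. The control group (n = 4 libraries, replicates 1 to 4) was kept for 12 h in DMEM without serum, and the NaCl group (n = 4 libraries, replicates 5 to 8) for the same time in that medium with 100 mmol NaCl, an amount the labels give without a volume. Both groups were therefore without serum, and all libraries came from a single cell line, with no genotype or clone named. Nothing in the labels says that the libraries of a group came from separate cultures, so the p-values measure the spread between these libraries, which may be technical.

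In macroautophagy a cup-shaped membrane grows around cytoplasm, closes into an autophagosome and fuses with a lysosome, where the content is digested. A kinase complex around ULK1 starts the process, a lipid kinase complex around VPS34 marks the membrane, ATG9 and ATG2 bring lipid to it, and a pair of ubiquitin-like conjugation systems attach proteins of the ATG8 family (LC3 and GABARAP) to its surface. Cargo receptors such as the SQSTM1 protein bind ubiquitin on the cargo and ATG8 proteins on the membrane. Most control of this machinery is known to act on the proteins, through mTORC1 and AMP-activated protein kinase, so transcript levels do not measure autophagic flux. The transcription factors TFEB and TFE3 are known to bind E-box sequences near many of the genes, and NFAT5 is the factor known to drive osmolyte genes in hypertonic cells.

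The promoter sequences of 6 called members are shown to give the regulatory context of these genes, and no count comparison rests on them. Uvrag and Sqstm1 had the lowest adjusted p-values among members that were higher and lower with NaCl, and Atg3, Atg5, Atg16l2 and Gabarapl1 were the called members that held a searched motif, among the 9 of 11 members called higher and 4 of 4 called lower whose promoters were searched. Each sequence runs 5′ to 3′ on the gene's strand, from 250 bases before to 50 bases after a RefSeq start of the gene (GRCm38.p6). Capitals mark the motifs CACGTG (E-box), TGGAAA (the core of the NFAT5 element), TGATGNAA (the ATF4 composite element) and TGACGTCA (the cAMP response element). All were searched on both strands.
Uvrag promoter, chr7:99141095-99141394, minus strand: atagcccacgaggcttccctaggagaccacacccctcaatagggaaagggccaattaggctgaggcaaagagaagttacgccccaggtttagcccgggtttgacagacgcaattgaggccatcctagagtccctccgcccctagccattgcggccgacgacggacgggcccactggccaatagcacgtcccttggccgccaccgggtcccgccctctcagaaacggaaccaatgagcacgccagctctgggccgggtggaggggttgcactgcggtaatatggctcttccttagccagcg
Sqstm1 promoter, chr11:50210771-50211070, minus strand: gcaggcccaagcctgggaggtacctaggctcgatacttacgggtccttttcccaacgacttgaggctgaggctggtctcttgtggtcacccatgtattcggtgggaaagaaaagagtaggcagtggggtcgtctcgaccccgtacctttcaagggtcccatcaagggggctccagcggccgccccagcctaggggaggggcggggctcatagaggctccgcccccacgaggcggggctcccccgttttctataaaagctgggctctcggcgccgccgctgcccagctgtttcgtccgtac
Atg3 promoter, chr16:45158579-45158878, plus strand: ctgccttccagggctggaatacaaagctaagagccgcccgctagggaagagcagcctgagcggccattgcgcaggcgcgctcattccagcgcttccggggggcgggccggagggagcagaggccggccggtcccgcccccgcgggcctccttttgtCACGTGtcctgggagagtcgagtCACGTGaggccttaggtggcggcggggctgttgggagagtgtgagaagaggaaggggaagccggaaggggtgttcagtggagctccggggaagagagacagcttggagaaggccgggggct
Atg5 promoter, chr10:44268089-44268388, plus strand: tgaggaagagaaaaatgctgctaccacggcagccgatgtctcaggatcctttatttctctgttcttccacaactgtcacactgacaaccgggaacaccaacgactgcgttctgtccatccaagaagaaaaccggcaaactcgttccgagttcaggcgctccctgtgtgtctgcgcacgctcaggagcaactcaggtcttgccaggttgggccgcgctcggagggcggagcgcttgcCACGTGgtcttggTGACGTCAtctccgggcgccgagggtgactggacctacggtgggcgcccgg
Atg16l2 promoter, chr7:101302039-101302338, minus strand: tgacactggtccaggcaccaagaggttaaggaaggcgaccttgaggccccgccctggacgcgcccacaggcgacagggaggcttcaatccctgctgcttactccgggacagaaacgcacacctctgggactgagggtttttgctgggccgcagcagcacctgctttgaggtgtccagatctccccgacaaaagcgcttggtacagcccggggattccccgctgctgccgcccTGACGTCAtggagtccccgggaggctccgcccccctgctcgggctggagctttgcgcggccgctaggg
Gabarapl1 promoter, chr6:129532942-129533241, plus strand: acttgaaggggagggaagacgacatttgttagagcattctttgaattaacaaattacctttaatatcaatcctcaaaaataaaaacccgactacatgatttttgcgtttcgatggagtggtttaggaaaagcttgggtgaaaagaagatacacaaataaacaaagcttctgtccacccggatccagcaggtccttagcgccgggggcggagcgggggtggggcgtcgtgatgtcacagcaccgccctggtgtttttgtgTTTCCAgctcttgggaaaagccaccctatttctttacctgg
None of the 4 motifs was in the Uvrag or the Sqstm1 window. Atg3 held 2 E-boxes, 94 and 71 bases upstream of its start. Atg5 held an E-box 14 bases upstream and a cAMP response element that begins 1 base upstream, and Atg16l2 held a cAMP response element 18 bases upstream. In Gabarapl1 the NFAT5 core lay 10 bases after the start, on the opposite strand.

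RefSeq promoters were searched for 36 of the 44 members, with 43 windows in all, and some genes had several windows. Members on chromosome 18 (Atg12, Epg5 and the called gene Pik3c3) were left out of the search. The set of all promoters was not cut in this way. An E-box was in 5 of the 43 windows (11.6%), against 7.15% of all 32851 promoters of the same length. Its holders were Atg3, Atg5, Atg7, Atg14 and Rubcn, of which Atg3 and Atg5 were called lower with NaCl and the others were not called. Over all genes tested, 34.1% were called and 17.2% were called lower. The windows of Atg7, Atg14 and Rubcn that held an E-box lay inside the annotated gene, away from its outermost start. The NFAT5 core was in 4 windows (9.30%), those of Atg13, Atg2b, Gabarapl1 and Vmp1, against 21.4% of all promoters. The cAMP response element was in 2 windows (4.65%) against 1.79%, and the ATF4 element was in 0 of 43 against 3.97%. The median share of G and C was 60.3% in windows of members and 52.7% over all promoters. The median number of CG pairs was 20 in windows of members and 7 over all promoters. The E-box and the cAMP response element each contain CG, and the part of composition in their shares was not tested. Such matches are letters in a window and do not show that a factor binds there.

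Depth was 41768063 to 47565623 counts in control and 35286796 to 42394487 counts in NaCl libraries, and the 44 members together summed to 4258 to 4578 CPM (the usual per-library scale for counts, here with TMM-scaled library totals, which removes differences in depth) in control and 4418 to 4564 CPM in NaCl libraries. Of 18 markers of collecting duct and tubule epithelium, 16 were analysed and 11 of these averaged at least 1 CPM, with a summed level of 696 to 873 CPM in control and 914 to 1049 CPM in NaCl libraries. The collecting duct genes Aqp2, Aqp3, Aqp4 and Avpr2 and the epithelial gene Cdh1 were each under 1 CPM on average. Cdh1 had at most 30 counts and Avpr2 at most 48 counts in any library, and the groups overlapped for Cdh1. All 5 fibroblast markers were above 1 CPM, with sums of 2753 to 3184 CPM in control and 2405 to 2821 CPM in NaCl libraries, mostly Col1a1. Of the 14 epithelial markers tested, 8 were called (57.1%, against 34.1% of all genes). On the log2 scale the 6 higher with NaCl were Pax2 at 1.23 (edgeR adjusted p = 1.57e-10), Pax8 at 0.54 (edgeR adjusted p = 1.45e-06), Cldn4 at 0.81 (edgeR adjusted p = 1.24e-06), Slc14a2 at 1.13 (edgeR adjusted p = 1.02e-04), Cdh1 at 1.43 (edgeR adjusted p = 0.0254) and Avpr2 at 2.60 (edgeR adjusted p = 0.00685), and the 2 lower were Hoxb7 at -0.25 (edgeR adjusted p = 0.00119) and Gata3 at -0.44 (edgeR adjusted p = 0.00341). Of the 5 fibroblast markers, Col1a1 and Pdgfra were lower, at -0.21 (edgeR adjusted p = 0.00808) and -0.67 (edgeR adjusted p = 0.0332), and Pdgfrb was higher, at 0.70 (edgeR adjusted p = 1.08e-06). Of 5 leukocyte markers, 2 were analysed, with sums of 5.95 to 7.19 CPM in control and 14.9 to 15.3 CPM in NaCl libraries. Of these, Ptprc rose from 4.05 ± 0.346 to 13.5 ± 0.434 CPM (SD, n = 4 each; log2 fold change 1.73, SE 0.094, edgeR adjusted p = 5.91e-10), and Cd68 had 2.41 ± 0.342 CPM in control and 1.69 ± 0.348 CPM in NaCl libraries (log2 fold change -0.51, SE 0.20, edgeR adjusted p = 0.0573). Of 5 intercalated cell markers, 1 was analysed, Atp6v0d2, at 1.45 to 2.22 CPM in control and 0.194 to 0.449 CPM in NaCl libraries. Of 5 proximal tubule markers, 3 were analysed, with sums of 162 to 205 CPM in control and 155 to 177 CPM in NaCl libraries, mostly Lrp2, and the 2 of 5 endothelial markers analysed summed to under 1 CPM in every library. A linear trend over library numbers 1 to 8 was then added to the fit. With it, 5 of the 14 epithelial markers kept their call and direction, against 15.6% of all genes. Calls of Cdh1, Avpr2, Gata3, Col1a1 and Pdgfra ended. Krt8, Krt18, Krt19, Epcam and Lrp2 became called lower. Their log2 fold changes were -0.57 (edgeR adjusted p = 1.46e-04), -0.53 (edgeR adjusted p = 5.98e-08), -1.34 (edgeR adjusted p = 0.0066), -0.32 (edgeR adjusted p = 0.0372) and -0.55 (edgeR adjusted p = 9.55e-08). The part of these markers in the results on autophagy genes was not tested.

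Of the 44 autophagy genes, 15 changed with NaCl (34.1%; edgeR quasi-likelihood test, Benjamini-Hochberg adjusted p under 0.05 over 14024 genes), the same share as the 34.1% over all genes tested. The genes that rose were 11: Uvrag, Calcoco1, Atg16l2, Gabarapl2, Optn, Atg2a, Atg101, Tecpr1, Pik3c3, Gabarapl1 and Map1lc3a. The genes that fell were 4: Atg3, Sqstm1, Wipi1 and Atg5. The higher calls made up 25.0% of members against 16.9% of all genes, and the lower calls 9.09% against 17.2%. Only Uvrag changed by 2-fold or more, which held for 3.2% of all genes tested, and the other called members had absolute log2 fold changes between 0.15 and 0.33. The median log2 fold change of the members was 0.017 against 0.0029 over all genes, and the median absolute value was 0.10 against 0.14. In these bulk libraries, fewer cells that express a gene and less RNA per cell cannot be told apart.

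The CPM ranges of control and NaCl did not overlap for 14 members (31.8%), against 33.4% of all genes, with NaCl higher for 9 and lower for 5. Pik3c3 and Gabarapl1 were called although their groups overlapped, and Epg5 was separated, with NaCl lower, without passing the test. When a linear trend over library numbers 1 to 8, here called the drift, was added to the fit, 5 members were called (24.1% of all genes were), and 4 of them kept the direction they had without it: Uvrag, Sqstm1, Wipi1 and Optn. This was 4 of 44 members, where 15.6% of all genes were called the same way in both. The fifth, Rubcn, was called only with the drift. Calls of the other 11 members ended under the drift, a term that runs largely along with the group because libraries 1 to 4 are control and 5 to 8 are NaCl.

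**Figure D1:**
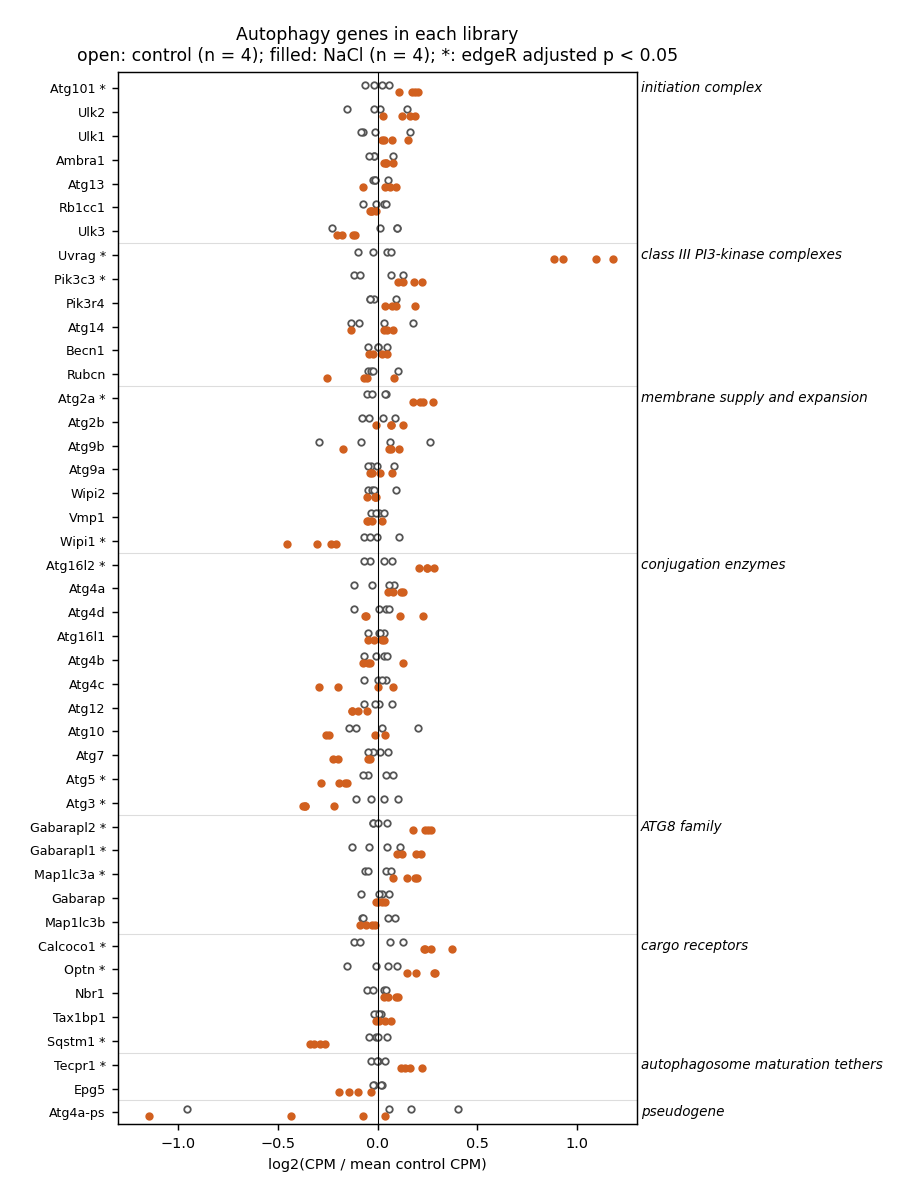
Level of each of the 44 autophagy genes in each library, as log2 of CPM over the mean control CPM (horizontal axis), with genes ordered by role. Open points are the 4 control libraries, filled points the 4 NaCl libraries, and an asterisk marks the 15 genes with an edgeR adjusted p under 0.05; the NaCl points of Uvrag lie farthest from the control points.

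Of the 7 genes of the initiation complex, 1 was called (14.3%, against 34.1% of all genes), and the median log2 fold change was 0.049. The kinase genes Ulk1, Ulk2 and Ulk3 and the scaffold genes Atg13, Rb1cc1 and Ambra1 did not pass the test. Atg101 (ENSMUSG00000037204), which encodes a partner that stabilises ATG13, was at 40.3, 41.4, 39.02 and 42.4 CPM in control replicates 1 to 4 and at 46.4, 43.9, 46.9 and 45.9 CPM in NaCl replicates 5 to 8. Every NaCl library was above every control library (log2 fold change 0.17, SE 0.047, edgeR adjusted p = 0.0107), and the drift term described above ended the call at 0.13 (edgeR adjusted p = 0.351). Rb1cc1, the scaffold on which the complex assembles, had 117, 119.9, 121 and 112 CPM in control and 117, 115, 114 and 115 CPM in NaCl libraries, with overlapping groups (log2 fold change -0.027, SE 0.035, edgeR adjusted p = 0.596).

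Among the kinases, Ulk1, which phosphorylates the other parts of the complex, had 72.1 ± 5.83 CPM in control and 75.7 ± 3.16 CPM in NaCl libraries (SD, n = 4 each), and its log2 fold change was 0.07 (edgeR adjusted p = 0.333). Its close relative Ulk2 had 54.7 ± 4.72 CPM in control and 59.8 ± 2.86 CPM in NaCl libraries, with a log2 fold change of 0.13 (edgeR adjusted p = 0.102). Control replicate 4 was the highest control library for both, and without it the values were 0.13 (edgeR adjusted p = 0.0418) for Ulk1 and 0.18 (edgeR adjusted p = 0.017) for Ulk2, past the threshold. Ulk3, a more distant relative, had 14.4 ± 1.48 CPM in control and 12.96 ± 0.385 CPM in NaCl libraries, a log2 fold change of -0.15 (edgeR adjusted p = 0.17). Without control replicate 1 it passed at -0.23 (edgeR adjusted p = 0.0351). The log2 fold change was 0.031 (edgeR adjusted p = 0.644) for Atg13 and 0.049 (edgeR adjusted p = 0.383) for Ambra1, which links the ULK and lipid kinase complexes.

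Uvrag showed the clearest change of all members. Its product replaces ATG14 in another form of the VPS34 lipid kinase complex that acts on endosomes and autophagosome maturation. Uvrag (ENSMUSG00000035354; chr7:98885021-99141141, minus strand, mm10) had 66.2, 59.9, 62.96 and 67.2 CPM in control replicates 1 to 4 and 145, 137, 122 and 118 CPM in NaCl replicates 5 to 8. All NaCl libraries lay far above all control libraries, with replicates 5 and 6 higher than 7 and 8. The mean went from 64.1 ± 3.30 to 131 ± 12.6 CPM (SD, n = 4 each), which is 2.04-fold (log2 fold change 1.03, SE 0.062, edgeR adjusted p = 4.43e-08). Over 18 alternative fits the log2 fold change was 0.97 to 1.22 and the call was kept in all 18. Of the annotated exon bases of Uvrag, 17.6% overlap the antisense gene Gm45187, which was not analysed here, and strand use in counting is not given in the sources used here.

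Of the 6 genes of the lipid kinase complexes, 2 were called, Uvrag and Pik3c3 (33.3%, against 34.1% of all genes), and the median log2 fold change was 0.054. Atg14, which directs the complex to the site of autophagosome formation and competes with UVRAG for the same place, had 31.5, 35.2, 32.3 and 38.96 CPM in control and 31.5, 35.7, 35.3 and 36.3 CPM in NaCl libraries, a log2 fold change of 0.0098 (edgeR adjusted p = 0.931). Pik3c3, the gene for the catalytic subunit VPS34, had 34.9, 35.6, 39.7 and 41.3 CPM in control and 42.98, 40.7, 41.3 and 44.2 CPM in NaCl libraries, and control replicate 4 lay above NaCl replicate 6 (log2 fold change 0.16, SE 0.058, edgeR adjusted p = 0.0441). Its call ended when any 1 of control replicates 1 and 2 and NaCl replicates 5, 6, 7 and 8 was left out. The edgeR adjusted p-values were then 0.133, 0.144, 0.0866, 0.0536, 0.0675 and 0.119, with log2 fold changes of 0.12 to 0.18. The call also ended under the drift, where the value was -0.044 (edgeR adjusted p = 0.807).

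Becn1, the scaffold gene of both complexes, had 157, 157, 151 and 161 CPM in control and 161, 152, 159 and 154 CPM in NaCl libraries. The groups overlapped fully (log2 fold change 0.00068, SE 0.035, edgeR adjusted p = 0.99). Pik3r4, the gene for the regulatory kinase-like subunit, had a log2 fold change of 0.10 (edgeR adjusted p = 0.14). Rubcn, whose product inhibits the UVRAG form of the complex, had 82.7, 83.8, 84.2 and 92.02 CPM in control and 71.9, 81.7, 82.7 and 90.8 CPM in NaCl libraries. The groups overlapped, with NaCl replicate 5 the lowest library and control replicate 4 the highest (log2 fold change -0.067, SE 0.06, edgeR adjusted p = 0.428), and after adding the drift Rubcn was lower with NaCl at -0.36 (edgeR adjusted p = 4.54e-04).

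Membrane supply and expansion genes gave 2 calls among 7 (28.6%, against 34.1% of all genes), in opposite directions. Atg2a, which encodes a lipid transfer protein that bridges the growing membrane and the endoplasmic reticulum, had 44.2, 44.99, 47.2 and 47.05 CPM in control and 53.7, 53.1, 55.6 and 51.8 CPM in NaCl libraries. All NaCl libraries were above the controls (log2 fold change 0.23, SE 0.044, edgeR adjusted p = 8.63e-04), and the drift ended the call at 0.17 (edgeR adjusted p = 0.155). Its paralog Atg2b had a log2 fold change of 0.064 (edgeR adjusted p = 0.29).

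Wipi1 encodes a protein that reads the lipid mark made by VPS34. Its level was 34.8, 36.4, 35.5 and 39.2 CPM in control replicates 1 to 4 and 26.6, 31.5, 30.97 and 29.5 CPM in NaCl replicates 5 to 8, lower in all NaCl libraries, with replicate 5 the lowest (log2 fold change -0.30, SE 0.061, edgeR adjusted p = 0.00128). The fall was present under the drift as well, at -0.47 (edgeR adjusted p = 0.00132). Wipi2, the family member that recruits the conjugation machinery, had 115 ± 5.04 CPM in control and 113 ± 1.64 CPM in NaCl libraries and a log2 fold change of -0.021 (edgeR adjusted p = 0.714). Vmp1, which encodes a lipid scramblase of the endoplasmic reticulum, had 191, 186, 195 and 189 CPM in control and 187, 184, 194 and 183 CPM in NaCl libraries (log2 fold change -0.026, SE 0.033, edgeR adjusted p = 0.578). The genes Atg9a and Atg9b, which encode the scramblase carried on small vesicles, had log2 fold changes of 0.0062 (edgeR adjusted p = 0.931) and 0.021 (edgeR adjusted p = 0.915).

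Of the 11 genes for conjugation enzymes, 3 were called (27.3%, against 34.1% of all genes). Of these, 2 were lower, which is 18.2% of the role against 17.2% of all genes, and 1 was higher. The log2 fold change was below 0 for 8 of the 11, with a median of -0.094. Atg3, the gene for the E2-like enzyme that joins ATG8 proteins to phosphatidylethanolamine, had 65.7, 62.7, 59.8 and 56.9 CPM in control and 47.5, 47.5, 52.7 and 47.3 CPM in NaCl libraries. No NaCl library reached the lowest control (log2 fold change -0.33, SE 0.052, edgeR adjusted p = 1.27e-04), and per kilobase of transcript it was at 29.4 CPM per kb in control and 23.4 CPM per kb in NaCl libraries, the highest of this role in both groups. Atg5, the gene for the acceptor of ATG12 and part of the complex that acts as E3, had 32.7, 35.7, 32.2 and 34.9 CPM in control and 29.6, 30.2, 30.5 and 27.8 CPM in NaCl libraries, again without overlap (log2 fold change -0.20, SE 0.055, edgeR adjusted p = 0.0105). With the drift in the fit the log2 fold changes were -0.21 (edgeR adjusted p = 0.107) for Atg3 and -0.18 (edgeR adjusted p = 0.265) for Atg5.

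Atg16l2, a homolog of the ATG16L1 subunit that joins ATG5 and ATG12, went the other way. It had 18.8, 19.7, 18.4 and 20.3 CPM in control and 23.5, 22.9, 22.3 and 22.96 CPM in NaCl libraries, all higher (log2 fold change 0.25, SE 0.06, edgeR adjusted p = 0.00419), and 0.23 (edgeR adjusted p = 0.198) with the drift. Atg16l1 itself had a log2 fold change of -0.0033 (edgeR adjusted p = 0.965). Atg7, the E1-like activating enzyme of both systems, had 27.6 ± 0.826 CPM in control and 25.4 ± 1.71 CPM in NaCl libraries and a log2 fold change of -0.12 (edgeR adjusted p = 0.129). Atg12 and Atg10, the ubiquitin-like protein and its E2-like enzyme, had values of -0.10 (edgeR adjusted p = 0.0897) and -0.11 (edgeR adjusted p = 0.527), and without control replicate 1 Atg12 passed at -0.13 (edgeR adjusted p = 0.0483).

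The ATG4 proteases cut the ATG8 proteins before conjugation and release them afterwards, and none of their genes was called. Log2 fold changes were 0.093 (edgeR adjusted p = 0.341) for Atg4a, -0.0067 (edgeR adjusted p = 0.935) for Atg4b, -0.094 (edgeR adjusted p = 0.43) for Atg4c and 0.061 (edgeR adjusted p = 0.51) for Atg4d. The transcript of Atg4a shares 96.0% of its length with Atg4a-ps and Syt6 at 98% identity or more, so reads from Atg4a and Atg4a-ps may have been counted for each other. Atg4a-ps is called a pseudogene here from its symbol, while the annotation lists it as protein-coding. Atg4a-ps itself had 6 to 18 counts in any library and a log2 fold change of -0.34 (edgeR adjusted p = 0.601).

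Of the 5 ATG8 family genes, 3 rose (60.0%, against 16.9% of all genes called higher), and the median log2 fold change was 0.15. Gabarapl2 had 98.2, 98, 99.7 and 103 CPM in control and 119, 113, 118 and 119.9 CPM in NaCl libraries. All NaCl libraries were higher, and the libraries of each group lay close together (log2 fold change 0.23, SE 0.035, edgeR adjusted p = 7.99e-05). The drift ended the call at 0.17 (edgeR adjusted p = 0.0643), and 20.9% of the Gabarapl2 transcript is shared with Gm6051 and Gm3724.

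Gabarapl1 had 561, 596, 632 and 663 CPM in control and 699, 656, 667 and 711 CPM in NaCl libraries. Control replicate 4 exceeded NaCl replicate 6, so the groups overlapped (log2 fold change 0.16, SE 0.047, edgeR adjusted p = 0.0161). The call ended without control replicate 2, at 0.14 (edgeR adjusted p = 0.0595), and without NaCl replicate 8, at 0.14 (edgeR adjusted p = 0.0516), and with the drift the value was -0.02 (edgeR adjusted p = 0.868). Its antisense neighbour 1700101I11Rik, which overlaps 28.3% of its exon bases, had at most 77 counts in any library.

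Map1lc3a was at 33.9, 34.3, 36.6 and 37.2 CPM in control and at 40.8, 40.4, 37.4 and 39.4 CPM in NaCl libraries, with control replicate 4 just below NaCl replicate 7 (log2 fold change 0.15, SE 0.052, edgeR adjusted p = 0.0295). Its call ended without control replicate 1 or 2 or NaCl replicate 5, 6 or 8, with edgeR adjusted p-values of 0.0835, 0.0928, 0.0735, 0.0791 and 0.0547. The log2 fold changes were then 0.13 to 0.15. The call also ended with the drift, at 0.11 (edgeR adjusted p = 0.497). Map1lc3b, the gene for LC3B, the usual marker protein of autophagosomes, was not called. It had 273, 274, 299 and 306 CPM in control and 285, 276, 270.4 and 282 CPM in NaCl libraries, with overlapping groups (log2 fold change -0.047, SE 0.04, edgeR adjusted p = 0.392). Gabarap had 289, 311, 308 and 318 CPM in control and 315, 304, 307 and 311 CPM in NaCl libraries, which also overlapped (log2 fold change 0.014, SE 0.035, edgeR adjusted p = 0.797).

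Per kilobase of the longest annotated transcript, a scale that allows genes to be set side by side, Gabarapl1 had 337 CPM per kb in control and 376 CPM per kb in NaCl libraries. Gabarap came next in this family with 227 CPM per kb in control and 229 CPM per kb in NaCl libraries, then Map1lc3b with 69.6 CPM per kb in control and 67.3 CPM per kb in NaCl libraries, Gabarapl2 with 59.5 CPM per kb in control and 69.9 CPM per kb in NaCl libraries and Map1lc3a with 31.9 CPM per kb in control and 35.5 CPM per kb in NaCl libraries. The order of the 5 genes was the same in both groups except that Gabarapl2 was below Map1lc3b in control and above it in NaCl libraries. Uvrag had 12.4 CPM per kb in control and 25.3 CPM per kb in NaCl libraries and Becn1 had 35.8 CPM per kb in control and 35.9 CPM per kb in NaCl libraries. The longest transcript need not be the form these cells use, so these levels are approximate.

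Of the 5 cargo receptor genes, 3 were called (60.0%, against 34.1% of all genes), with Sqstm1 lower and Calcoco1 and Optn higher. Sqstm1 encodes the receptor that gathers ubiquitinated protein and is itself degraded by autophagy. Sqstm1 (ENSMUSG00000015837; chr11:50199366-50210827, minus strand, mm10) had 556, 568, 572 and 592 CPM in control replicates 1 to 4 and 458, 452, 476 and 468 CPM in NaCl replicates 5 to 8. The lowest control library was well above the highest NaCl library. It fell from 572 ± 14.8 to 464 ± 10.7 CPM (SD, n = 4 each; log2 fold change -0.30, SE 0.032, edgeR adjusted p = 1.88e-06), and the call was kept in all 18 alternative fits, with log2 fold changes from -0.39 to -0.29. The gene Mrnip overlaps 17.3% of its exon bases on the opposite strand and had a log2 fold change of -0.062 (edgeR adjusted p = 0.677).

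Calcoco1, the gene for a receptor of endoplasmic reticulum and Golgi membranes, had 128, 131, 146 and 153 CPM in control and 165, 168, 164 and 181 CPM in NaCl libraries. All NaCl libraries were higher, but control replicates 3 and 4 were above 1 and 2 (log2 fold change 0.28, SE 0.053, edgeR adjusted p = 9.62e-04). With the drift in the fit the difference was 0.03 (edgeR adjusted p = 0.805), no longer called. Optn, which encodes the receptor optineurin that acts on bacteria and damaged mitochondria, had 30.99, 28.8, 26.1 and 30.1 CPM in control and 35.3, 33.1, 35.4 and 32.1 CPM in NaCl libraries, without overlap (log2 fold change 0.23, SE 0.061, edgeR adjusted p = 0.00848). It remained called with the drift, at 0.34 (edgeR adjusted p = 0.0237).

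Nbr1, the receptor gene related to Sqstm1, had 215, 220.2, 228 and 230.4 CPM in control and 238, 232, 228 and 240.2 CPM in NaCl libraries, a difference that did not pass (log2 fold change 0.069, SE 0.034, edgeR adjusted p = 0.129). Tax1bp1, another receptor gene, had 246, 244, 249.6 and 248 CPM in control and 253, 246, 248 and 258 CPM in NaCl libraries, with overlapping groups (log2 fold change 0.025, SE 0.031, edgeR adjusted p = 0.589). Summed over the 5 receptor genes the level was 1177 to 1253 CPM in control and 1130 to 1179 CPM in NaCl libraries, so the groups overlapped narrowly.

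Both genes for tethers that act as autophagosomes meet lysosomes were measured. Tecpr1, whose product binds ATG5 and ATG12, had 55.3, 53.9, 52.7 and 53.7 CPM in control and 58.4, 59.4, 60.4 and 62.97 CPM in NaCl libraries, all higher (log2 fold change 0.16, SE 0.042, edgeR adjusted p = 0.00632), and 0.12 (edgeR adjusted p = 0.311) with the drift. Epg5, whose product gives fusion its specificity, had 44.9, 43.6, 44.7 and 43.5 CPM in control and 41.3, 38.7, 39.96 and 43.2 CPM in NaCl libraries. All NaCl libraries were lower, but the difference did not pass (log2 fold change -0.12, SE 0.048, edgeR adjusted p = 0.0701). Without NaCl replicate 8 it passed, at -0.15 (edgeR adjusted p = 0.0343).

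**Figure D2:**
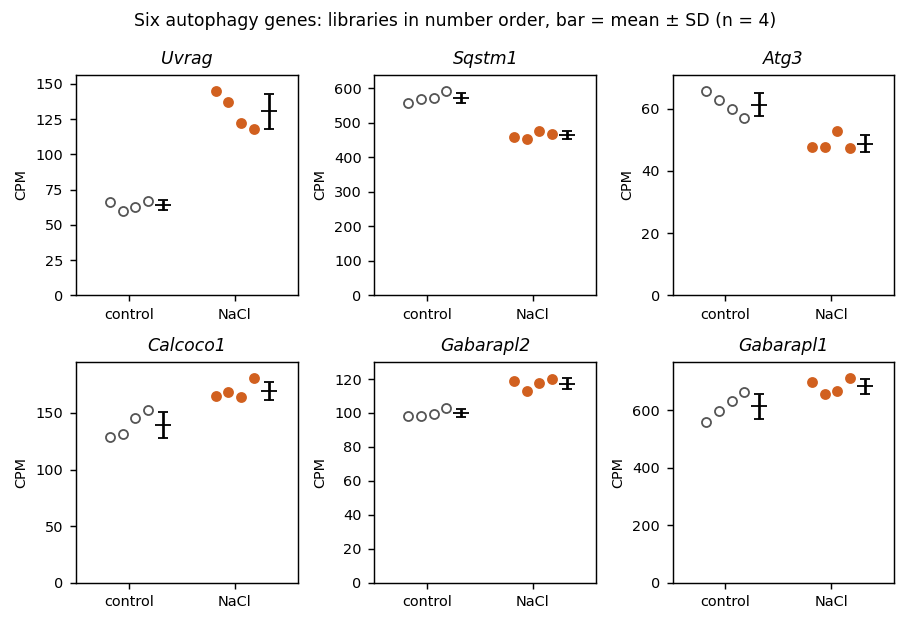
CPM of 6 autophagy genes in each library, with the libraries of a group in number order and the bar at the side giving the mean and SD (n = 4). Uvrag, Calcoco1 and Gabarapl2 are higher and Sqstm1 and Atg3 lower in every NaCl library, while the groups overlap for Gabarapl1.

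**Figure D3:**
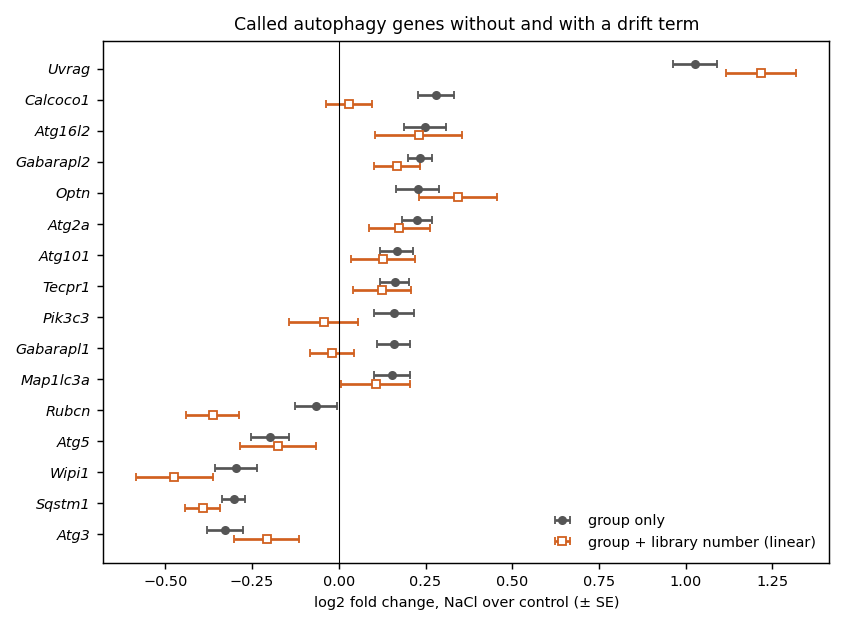
Log2 fold change (NaCl over control) with its SE for the 15 called autophagy genes and Rubcn, from the fit with the group alone (filled circles) and with the library number as a linear drift (open squares). Uvrag, Optn, Sqstm1 and Wipi1 are called in both fits, and Calcoco1, Pik3c3 and Gabarapl1 move close to 0 with the drift.

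The 29 members that were not called showed small differences. Apart from the pseudogene, their log2 fold changes lay between -0.15 and 0.13, and the smallest absolute value among called members was 0.15. The median SE over the members was 0.050. Every member other than the pseudogene had at least 158 counts in each library. Other genes overlap the exons of several members on the opposite strand, among them Cntd1 over 43.9% of Becn1 and Kri1 over 19.3% of Atg4d. These neighbours were not called either, with log2 fold changes of 0.49 (edgeR adjusted p = 0.127) for Cntd1, at most 65 counts in a library, and -0.022 (edgeR adjusted p = 0.752) for Kri1. For Atg9a, the gene Gm29253 covers 31.8% of its exon bases on the same strand, so reads of the pair cannot be assigned with certainty. Sequence of at least 75 bases at 98% identity was shared with another gene by 17 of the 44 members, and for 9 of them over more than 10% of the transcript.

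Genes around the core machinery were examined in 6 further lists of 98 genes, of which 94 were tested. Of these, 32 changed (34.0%, against the 34.1% of all genes), 18 higher and 14 lower, and the median log2 fold change was 0.0015. The share was highest for mTORC1 and its inputs, with 14 of 28 (50%), 9 higher and 5 lower, and it was 8 of 20 (40%) for receptors of mitochondria and endoplasmic reticulum, 6 higher and 2 lower. It was 3 of 15 (20.0%) for fusion with lysosomes, 2 of 10 (20.0%) for further core machinery, 2 of 10 (20.0%) for AMP-activated protein kinase and 3 of 11 (27.3%) for transcription factors of autophagy genes. With the drift in the fit, 15 of the 94 genes were called the same way, where 15.6% of all genes were. Of these 15, 7 were in the mTORC1 list and 4 among the receptors of mitochondria and endoplasmic reticulum.

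**Figure D4:**
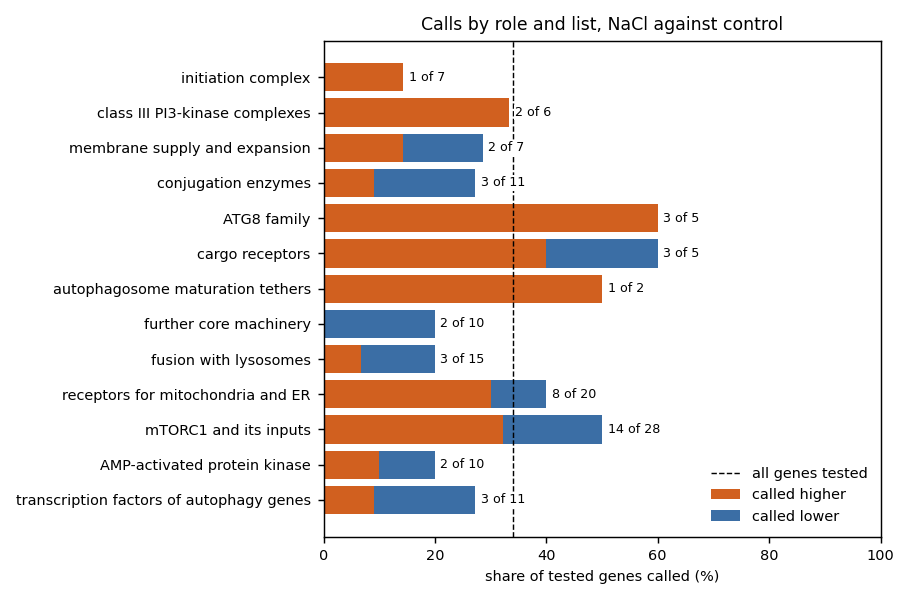
Share of tested genes called higher (orange) and lower (blue) with NaCl, in percent, for the 7 roles of the autophagy genes and the 6 further lists, with the number called of those tested beside each bar. The dashed line is the share over all 14024 genes tested, 34.1%.

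mTORC1 is the kinase complex that holds autophagy back when nutrients suffice. In its list, Ddit4l, which encodes an inhibitor of mTORC1, had 21.5, 24.4, 20.5 and 20.05 CPM in control and 48.9, 51.8, 48.4 and 48.6 CPM in NaCl libraries, a 2.29-fold rise without overlap (log2 fold change 1.19, SE 0.061, edgeR adjusted p = 2.95e-10). Rragd, the gene for a Rag GTPase that brings mTORC1 to the lysosome, fell by 0.997 on the log2 scale, with 6.24, 6.61, 5.92 and 6.71 CPM in control and 2.43, 3.33, 3.51 and 3.45 CPM in NaCl libraries (SE 0.13, edgeR adjusted p = 1.91e-05). Both kept their call with the drift in the fit. The genes for the kinase itself and its partner Raptor, Mtor and Rptor, were not called, with log2 fold changes of 0.076 (edgeR adjusted p = 0.109) and 0.056 (edgeR adjusted p = 0.352).

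The sestrin genes, whose products restrain mTORC1, diverged (Sesn2 and Sesn3, like Mtor, Rptor, Tfeb and Tfe3, were singled out after their values were seen). Sesn1 had 21.3, 20.6, 21.6 and 22.9 CPM in control and 29.7, 28.3, 28.8 and 25.2 CPM in NaCl libraries, all higher (log2 fold change 0.38, SE 0.064, edgeR adjusted p = 2.47e-04). Sesn2 had 54.9, 55.8, 52.2 and 55.6 CPM in control and 40.4, 39.96, 46.2 and 44.6 CPM in NaCl libraries, all lower (log2 fold change -0.35, SE 0.053, edgeR adjusted p = 6.87e-05), and Sesn3 had a log2 fold change of -0.0015 (edgeR adjusted p = 0.988).

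Among the receptors for organelles, Stbd1, whose product binds glycogen, fell from 31.4 ± 0.706 to 16.3 ± 1.68 CPM (SD, n = 4 each; log2 fold change -0.94, SE 0.071, edgeR adjusted p = 2.91e-08), with no overlap between groups. Ccpg1, a receptor gene of the endoplasmic reticulum, rose from 83.8 ± 6.52 to 102 ± 3.08 CPM (log2 fold change 0.28, SE 0.05, edgeR adjusted p = 3.10e-04), and the drift ended that call at 0.07 (edgeR adjusted p = 0.548). Wdfy3, the gene for a large adaptor of aggregate clearance, rose from 139 ± 3.22 to 162 ± 3.49 CPM (log2 fold change 0.22, SE 0.033, edgeR adjusted p = 7.33e-05). The mitochondrial receptor genes Bnip3 and Bnip3l are given because of their spread, seen in the values. Bnip3 had 274, 324, 406 and 416 CPM in control replicates 1 to 4 and 140.1, 239, 318 and 351 CPM in NaCl replicates 5 to 8, and Bnip3l had 387, 428, 499.6 and 525 and 335, 413, 504 and 548 CPM. Libraries with higher numbers were higher within both groups, the groups overlapped, and neither gene was called, with log2 fold changes of -0.44 (edgeR adjusted p = 0.34) and -0.031 (edgeR adjusted p = 0.921). With the drift in the fit both were called lower, at -1.76 (edgeR adjusted p = 0.0141) and -0.84 (edgeR adjusted p = 4.55e-06). With the library number centred within its group instead, Bnip3 was at -0.49 (edgeR adjusted p = 0.0479) and Bnip3l at -0.045 (edgeR adjusted p = 0.412), not called.

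In the fusion list, Stx17, the gene for the autophagosomal SNARE, fell from 29.2 ± 1.01 to 25.7 ± 2.03 CPM (SD, n = 4 each; log2 fold change -0.18, SE 0.063, edgeR adjusted p = 0.034), and Vps39 of the HOPS tethering complex fell from 53.8 ± 2.16 to 48.5 ± 2.88 CPM (log2 fold change -0.15, SE 0.05, edgeR adjusted p = 0.0279). Vps11, shared by HOPS and its sister complex, rose from 55.3 ± 1.59 to 60.5 ± 2.40 CPM (log2 fold change 0.13, SE 0.044, edgeR adjusted p = 0.0298). In the further core machinery, Snx4 fell from 112 ± 2.29 to 105 ± 1.13 CPM (log2 fold change -0.092, SE 0.033, edgeR adjusted p = 0.0412) and Rubcnl, at about 1 CPM, fell from 1.37 ± 0.111 to 0.767 ± 0.351 CPM (log2 fold change -0.83, SE 0.30, edgeR adjusted p = 0.0397). Of the AMP-activated protein kinase genes, the regulatory subunit gene Prkab1 fell from 74.99 ± 3.04 to 65.3 ± 1.36 CPM (log2 fold change -0.20, SE 0.041, edgeR adjusted p = 0.00115) and the catalytic subunit gene Prkaa2 rose from 49.1 ± 2.17 to 54.6 ± 4.42 CPM (log2 fold change 0.15, SE 0.056, edgeR adjusted p = 0.0441). The groups overlapped for Stx17, Vps39 and Prkaa2, and with the drift Vps11, Snx4, Rubcnl and Prkaa2 no longer passed. Their log2 fold changes were then 0.13 (edgeR adjusted p = 0.27), -0.10 (edgeR adjusted p = 0.283), -1.51 (edgeR adjusted p = 0.0804) and 0.16 (edgeR adjusted p = 0.269), no smaller in size than without it, with larger SEs.

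Of the transcription factor genes, Tfeb had 28.96, 27.5, 28.3 and 29.3 CPM in control and 30.4, 32.2, 31.1 and 31.2 CPM in NaCl libraries, a difference that did not pass although the groups did not overlap (log2 fold change 0.13, SE 0.051, edgeR adjusted p = 0.0585). Tfe3 had a log2 fold change of 0.054 (edgeR adjusted p = 0.387). The 3 called genes of this list were Nfat5, higher at 0.28 (edgeR adjusted p = 3.96e-05), and Ddit3 and Atf4, lower at -0.37 (edgeR adjusted p = 0.00277) and -0.10 (edgeR adjusted p = 0.0367). The drift ended the calls of Ddit3 and Atf4, at -0.36 (edgeR adjusted p = 0.118) and -0.0076 (edgeR adjusted p = 0.949).

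**Figure D5:**
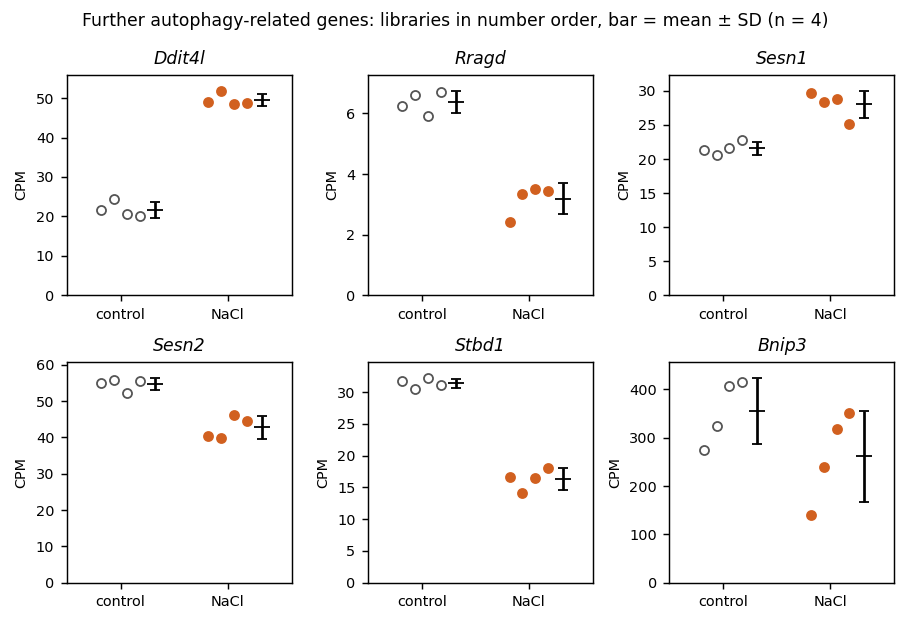
CPM of 6 genes that act around the autophagy machinery in each library, with the libraries of a group in number order and the bar at the side giving the mean and SD (n = 4). Ddit4l and Sesn1 are higher and Rragd, Sesn2 and Stbd1 lower in every NaCl library, while Bnip3 overlaps between the groups and spreads widely within each.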

How the data were processed

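RNA of 4 control and 4 NaCl libraries was analysed as the raw count of each gene, a whole number per library that the authors deposited, without normalization. The submitters' processing notes name Trim Galore 0.6.7, STAR, DESeq2 1.34.0 and mm10, with no role or order, and the counting program and its strand setting are not given in the sources used here. Columns were matched to samples by name, and the deposited normalized table was not used. Genes passing edgeR's filterByExpr (minimum count 10) were scaled by TMM and tested with the robust quasi-likelihood test on group alone (edgeR 4.0.16, limma 3.58.1, R 4.3.3), with Benjamini-Hochberg adjustment over 14024 genes and a threshold of 0.05. The fit was also run on simulated counts that held no trend over library number, so that run cannot show how the fit behaves under such a trend. CPM values use TMM-scaled library sizes. Alternatives were other scalings and filters, DESeq2 1.42.0, limma-voom, the library number in the fit and leaving out libraries. Coordinates, lengths and overlaps came from GENCODE M21 (GRCm38), shared sequence from blastn 2.17.0 (at least 75 bases, 98% identity) and promoters from RefSeq. The members, roles, lists and naming rule (every member by name; values in every library for the 3 called members of each role with the largest absolute log2 fold changes and for its member with the highest mean CPM; the 3 called genes of each further list with the largest absolute log2 fold changes) were chosen with earlier results of these data known, and values of a few more genes were added.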

Additional observations from a re-analysis of the deposited data

Results flagged for a closer look

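In 6 of the 88 groups of 4 libraries examined (44 genes, each in control and NaCl), 1 library stood far from the other 3, where chance gives about 4.4. Atg4b was at 59.5 CPM in NaCl replicate 5, against 51.78 to 52.95 CPM in the other NaCl libraries. Wipi2 was at 110.8 CPM in the same library, against 113.9 to 114.3 CPM. Atg3 was at 52.65 CPM in NaCl replicate 7 while the others lay between 47.32 and 47.55 CPM, and it was still below every control library. Atg13 was at 59.34 CPM in control replicate 3, against 56.35 to 56.75 CPM. In control replicate 4, Pik3r4 was at 46.84 CPM, against 42.74 to 43.38 CPM, and Rubcn was at 92.02 CPM, against 82.73 to 84.17 CPM.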

How the results depend on the processing

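Of the 44 genes, 42 or more kept their direction and their side of the threshold under other scalings, other filters on low counts, DESeq2 and limma-voom, except that the requirement of at least 10 counts in every library dropped Atg4a-ps and left 43. The fit on group alone called 11 members higher and 4 lower. No paired analysis was possible because the groups share no replicate numbers. With the library number as a linear drift, 2 members were called higher and 3 lower; higher minus lower calls became 0 for initiation (1 without the drift), 0 for the PI3-kinase complexes (2), -1 for membrane supply (0), 0 for conjugation (-1), 0 for the ATG8 family (3), 0 for receptors (1) and 0 for tethers (1). With the number centred within its group, 17 members were called, where 43% of all genes were. Higher minus lower calls were then 2 for receptors and 0 for tethers. Leaving out 1 library at a time gave 8 to 13 higher and 4 to 6 lower calls (12 to 17 members in all, where 28.7% to 32.6% of all genes were called), and differences of 0 to 3 for initiation, 1 to 2 for the PI3-kinase complexes, -2 to -1 for conjugation, 1 to 3 for the ATG8 family and 0 to 1 for tethers. Leaving out both control replicate 1 and NaCl replicate 5, the deepest and shallowest libraries, chosen after seeing the data, gave 0 for initiation, 1 for the PI3-kinase complexes, -2 for conjugation and 1 for the ATG8 family. The cause of these changes was not tested.

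Under the drift, log2 fold changes reversed for Nbr1 (-0.0043), Tax1bp1 (-0.0091), Gabarapl1 (-0.020), Ulk1 (-0.025), Ambra1 (-0.025), Atg13 (-0.038), Pik3c3 (-0.044), Gabarap (-0.059), Atg2b (-0.093), Atg9a (-0.13), Atg4d (-0.18), Atg14 (-0.27), Atg9b (-0.39), Rb1cc1 (0.028) and Atg4b (0.17), of which only Gabarapl1 and Pik3c3 had been called. Becn1, near 0, reversed under DESeq2 (-0.00105), median-of-ratios factors (-0.000920), no filter (-0.00295), upper-quartile factors (-0.000857) and without both libraries (-0.0130). Library totals alone reversed Atg4b (0.0041) and Atg16l1 (0.0068), and leaving out both libraries reversed Atg9b (-0.0104), Gabarap (-0.022) and Atg16l1 (0.021). Leaving out 1 library at a time gave ranges across 0 for Atg9a (-0.019 to 0.032), Atg16l1 (-0.022 to 0.011), Atg4b (-0.054 to 0.014), Atg9b (-0.069 to 0.12), Wipi2 (-0.038 to 0.0088), Atg4d (-0.0021 to 0.10), Gabarap (-0.016 to 0.030), Becn1 (-0.018 to 0.015) and Atg14 (-0.035 to 0.072). None of these genes was called. Depth limits the pseudogene most, at 6 to 18 counts a library.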
